A study of Glycine max with 12 samples.

Results

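The genes described here are the 168 gene models, from 138 loci, whose transcripts were at least 2-fold lower in the defective than in the standard seed coat of both Clark and Harosoy soybeans at 100–200 mg seed weight. They were chosen from 78773 models by their RPKM values, a read density that corrects for the length of the model and the depth of the library, at this stage. A model needed at least 5 RPKM in either library of each isoline pair and a ratio of at least 2 in both pairs. Of all models with at least 5 RPKM in either library, 1.74% were 2-fold lower in Clark and 8.50% in Harosoy. Both pairs met the rule for 193 models, or 0.868% of the 22243 models that reached 5 RPKM in each pair, and 25 of these were left out with 15 named loci and the NAC models. Because these values chose the members, they are given as a description with no test, and every test below uses only the 8 libraries of the other stages.

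Immature seed coats of 4 greenhouse-grown isolines were each sequenced at 50–100, 100–200 and 400–500 mg, with 1 library of pooled seed coats for each line and stage. Clark defective (CD) and Harosoy defective (HD) carry the net pattern mutation, written Def, whose gene is not known and which was moved into each cultivar by backcrossing. Clark standard (CS) and Harosoy standard (HS) have intact seed coats. CD and CS share the *i R T* alleles and a black seed, whereas HD and HS share the *I r t* alleles and a yellow seed, so that background and seed colour cannot be told apart. The 12 libraries held 47.5 to 113 M hits (M, mega), with a median of 75.7 M. Reads were 75 bases long at 100–200 mg and 100 bases long, on a different platform, at the other stages. The 100–200 mg stage thus cannot be told apart from its platform, but both libraries of a pair always shared one. At 100–200 mg the labels of CS and CD carry different RNASeq tags, whose meaning is not given, while HS and HD carry the same. The CS library of this stage held 113 M hits against 72.5 M in CD. The seed coat transcripts PRP1 and PRP2, 2 proline-rich cell wall proteins, summed to 1356 to 12914 RPKM in the 12 libraries. The 5 cotyledon markers summed to 14.5 to 313 RPKM. At 100–200 mg PRP1 had 5890 RPKM in HD against 162 RPKM in HS, and PRP2 had 8.68 against 3438 RPKM. Both thus differed between the lines, so their sum is no measure of seed coat content, and PRP2 is among the loci left out.

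The seed coat is a maternal tissue that surrounds the embryo, passes nutrients to it while the seed fills and later forms its protective layer. As seeds fill, plant tissues turn on genes for storage proteins, for tonoplast aquaporins, the water channels of the vacuole membrane, and for proteases that act in the vacuole. Chaperones such as the small heat shock proteins, Hsp90 and the DnaJ proteins hold or refold other proteins, and hormone-responsive families such as the gibberellin-regulated peptides act in growth. Names of models come from the study's own annotation of differential genes, which gave 28 members their name through another model of the same locus. For 26 members it held no entry, and 29 were annotated as unknown. The 13 lists used below are keywords in this annotation, so each holds genes that the study selected on these libraries, and its counts are not independent evidence of a direction.

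At 100–200 mg the members ranged from 0.511 to 91.4 RPKM in CD against 5.05 to 523 RPKM in CS, with medians of 4.33 and 11.9 RPKM. In HD they ranged from 0.316 to 90.4 RPKM against 5.05 to 621 RPKM in HS, with medians of 4.17 and 21.9 RPKM. The 2 defective libraries were thus at a similar level and the HS library stood above the CS library. The median ratio was 2.48-fold lower in CD and 4.10-fold lower in HD, and the ratio was the larger one in Harosoy for 135 of the 168 members. Lower models were more frequent in this Harosoy pair in general, with 8.50% of all models at 5 RPKM 2-fold lower against 1.74% in Clark. At least 3-fold lower in both backgrounds were 39 members, and at least 5-fold lower were 17 in CD and 65 in HD, of which 13 met it in both. No member had fewer than 20 hits in any of these 4 libraries, so none lay at the floor of 3 hits. In whole seed coats, fewer cells of a type and less RNA per cell cannot be told apart.

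**Figure D1:**
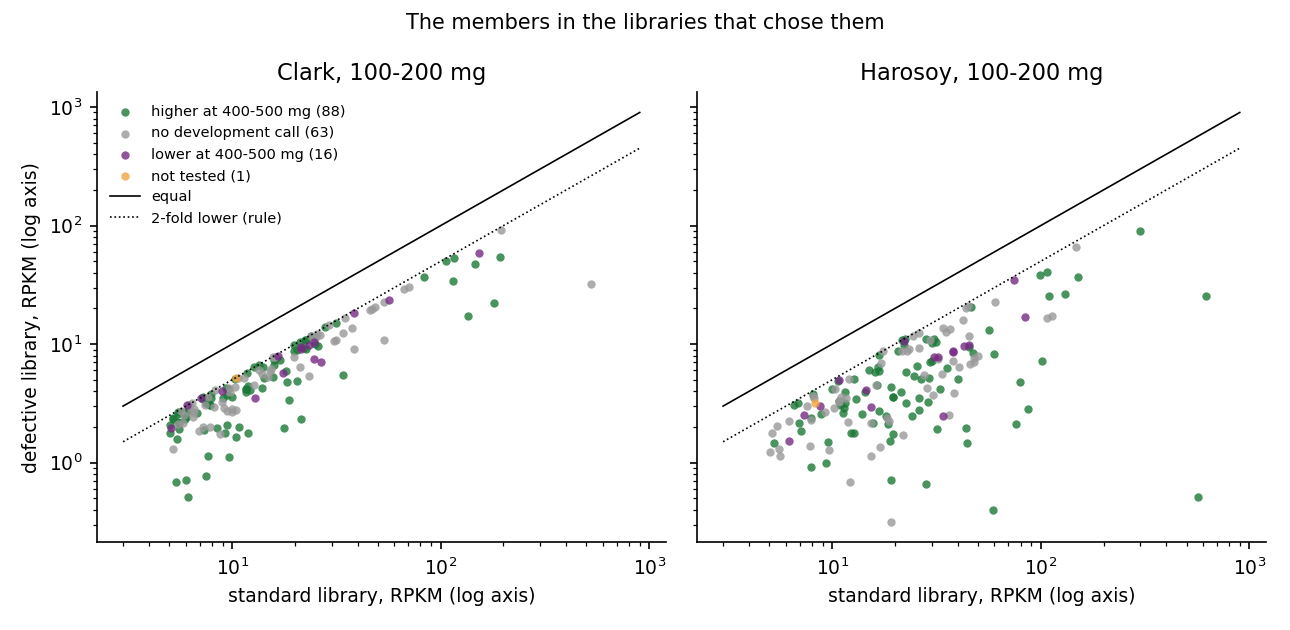
RPKM of each of the 168 members in the defective library (vertical axis) and the standard library (horizontal axis) at 100–200 mg, on log axes, for Clark on the left and Harosoy on the right. The solid line marks equal values and the dotted line the 2-fold ratio of the rule. The colours give the development call from the other stages. The cloud lies farther below the dotted line in Harosoy, where 65 members were at least 5-fold lower, than in Clark, where 17 were. Of all models at 5 RPKM, 8.50% were 2-fold lower in Harosoy and 1.74% in Clark.

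Members at the edge of the rule differed little from models outside it. The ratio in Clark was closest to the limit for Glyma13g27820.1, annotated as a harpin-induced protein, with 14.5 RPKM in CD against 29.0 RPKM in CS, while Glyma08g45920.2, a GTP-binding protein, lay just outside with 5.89 against 11.8 RPKM. The other model of that locus, Glyma08g45920.1, is a member. In Harosoy the limit fell between Glyma08g09640.1, a THH1 virion-binding protein with 10.9 RPKM in HD against 21.7 RPKM in HS, and Glyma03g21620.1 with 3.51 against 6.92 RPKM. The minimum of 5 RPKM fell between Glyma14g39280.2, a zinc finger protein with 1.24 RPKM in HD against 5.05 RPKM in HS, and Glyma04g17670.1, of unknown function, with 0.974 RPKM in CD against 4.95 RPKM in CS. Members are not independent of each other: 24 loci gave more than 1 member and together held 54 of them, because splice models of a locus share reads. Glyma20g28460.1 and Glyma20g28640.1, from 2 loci, had values within 0.618% of each other in all 12 libraries and count as 1 measurement. The small heat shock loci Glyma07g32050, Glyma07g32070 and Glyma07g32110 lay close together, the first pair 2 and the next pair 4 loci apart in the order of the locus names. Directly side by side were, among others, the cytochrome P450 loci Glyma09g31810 and Glyma09g31820, and Glyma20g38100 with Glyma20g38110. All 20 chromosomes held members, with the most on chromosome 20 with 12 loci and the fewest on chromosome 19 with 1 locus.

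More members had transcripts that are more abundant late in seed coat development than had transcripts more abundant early. Development was tested between the 400–500 mg and the 50–100 mg libraries of the 4 lines, with a block for each line, in limma on log2(RPKM + 1) over 43849 models. Of the 167 members tested, 88 (from 78 loci) were higher at 400–500 mg and 16 (from 11 loci) were lower at an adjusted p under 0.05, while 63 (from 48 loci) passed in neither direction. Over all models tested, 23.6% were higher and 28.5% lower. The median difference was 0.90 on the log2 scale for the members and −0.03 for all models tested. The member that was not tested, Glyma10g00400.1, has no annotation here and is named after its values were seen. It was at 0 RPKM in the 8 libraries of these stages. At 100–200 mg it had 5.19 RPKM in CD against 10.5 RPKM in CS, and 3.19 RPKM in HD against 8.29 RPKM in HS. These values rest on 29 to 173 hits, and its recovered length of 146 bases was the shortest of the members. It was thus found only in the libraries with the shorter reads and the other platform. Whether its absence elsewhere follows the stage or the reads was not tested. The call was made in the standard lines alone for 107 members higher and 14 lower, and in the defective lines alone for 62 higher and 19 lower. Over all models the standard lines alone gave 7600 higher and 9059 lower of 41625, and the defective lines alone 2779 and 5528 of 41812, so that calls were fewer there in general.

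The 88 members that rose had medians of 4.49 RPKM in CD, 3.62 in CS, 2.89 in HD and 3.64 in HS at 50–100 mg. At 100–200 mg the medians were 3.86 RPKM in CD against 11.7 RPKM in CS, and 3.93 RPKM in HD against 21.5 RPKM in HS. By 400–500 mg they had reached 30.9 RPKM in CD against 38.5 RPKM in CS, and 26.3 RPKM in HD against 26.8 RPKM in HS. The defective libraries of the middle stage were therefore near their own early level, and the standard libraries lay above theirs for all 88 members. In CD 51 of the 88 were below the 50–100 mg library of the line and 37 above it, and in HD 24 were below and 64 above. These are counts at a stage that the rule used and that was read on a different platform from the others.

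**Figure D2:**
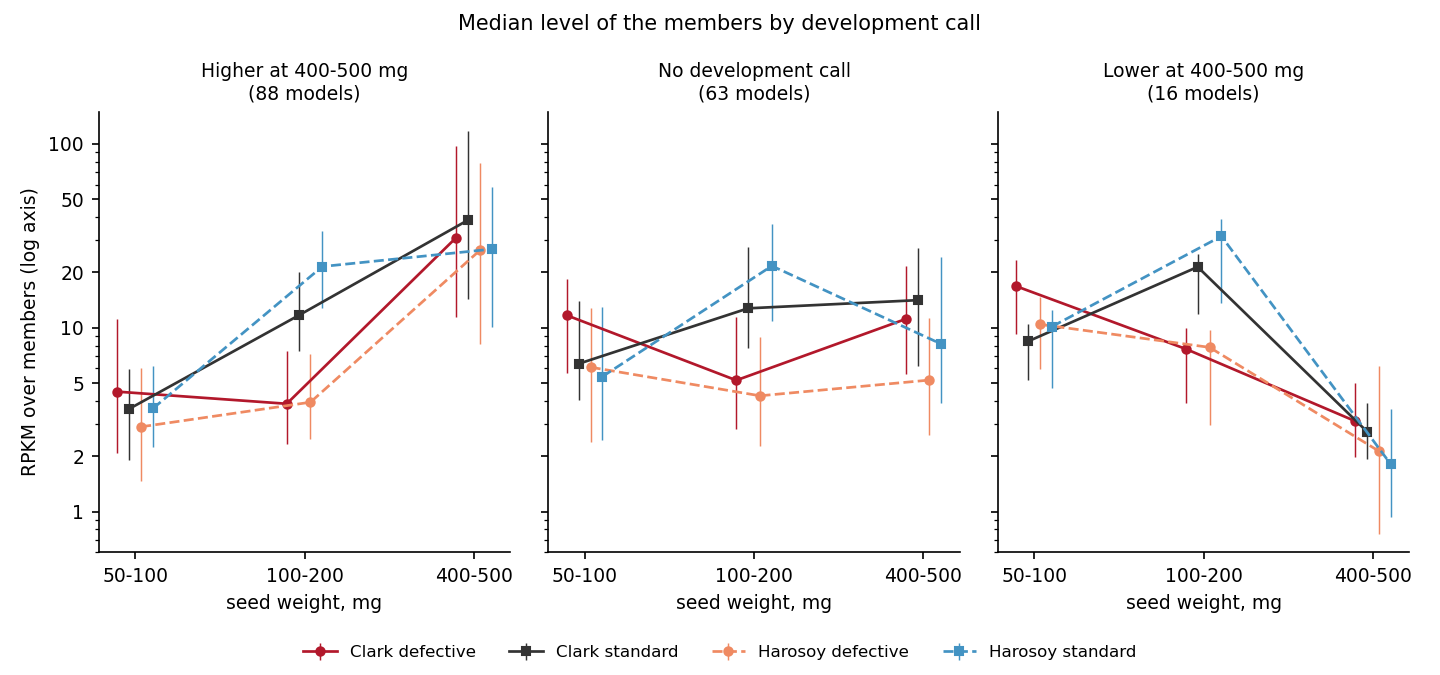
Median RPKM of the members in each library (points, with the quartiles as vertical bars, log axis) against seed weight in mg, for members higher at 400–500 mg, members with no development call and members lower at 400–500 mg. In the first panel the 100–200 mg medians are 3.86 in CD and 3.93 in HD against 11.7 in CS and 21.5 in HS, while at 400–500 mg the 4 lines lie between 26.3 and 38.5.

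The place of the 100–200 mg library between the early and the late library of its own line described the same values by line. Among the 168 members it lay above both in 9 in CD against 67 in CS, and in 18 in HD against 112 in HS. Below both it lay in 91 members in CD against 1 in CS, and in 53 in HD against 1 in HS. Over all models with at least 5 RPKM in a library of the line, the share above both was 28.5% in CD, 24.4% in CS, 26.8% in HD and 30.2% in HS. The share below both was 35.6% in CD, 25.1% in CS, 29.5% in HD and 29.1% in HS. Among the 63 members with no development call the middle stage was the highest in 39 in CS and in 56 in HS. The rule asked for higher standard than defective values here, which favours members high in CS and HS and low in CD and HD. These counts are therefore a description and no evidence of a peak, and the stage was read on a different platform.

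**Figure D3:**
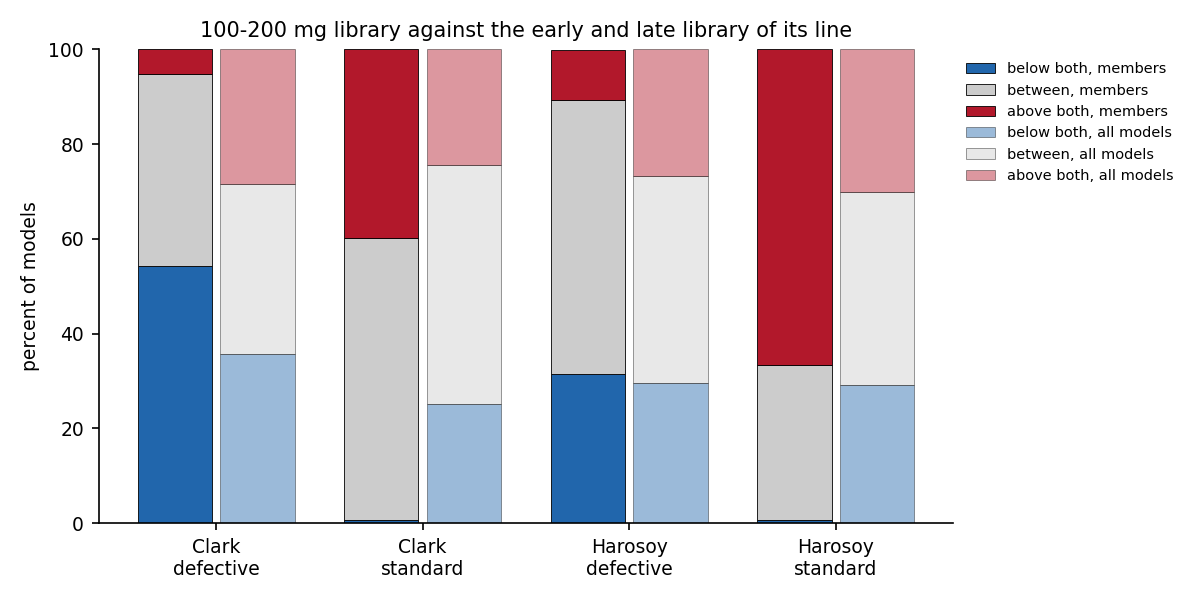
Percent of models whose 100–200 mg library lay below both, between, or above both the 50–100 mg and the 400–500 mg library of the same line, for the 168 members (solid bars) and for all models with at least 5 RPKM in a library of the line (pale bars). The red part of the solid bars is 5.4% in CD and 10.7% in HD against 39.9% in CS and 66.7% in HS, while the pale bars differ less, with 24.4% to 30.2%. The rule used the 100–200 mg values, which favours this contrast.

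Glyma06g15410.1, annotated as a calmodulin-binding protein, one of the proteins that respond to the calcium sensor calmodulin, had the largest ratio of any member in Harosoy. At 100–200 mg it had 22.2 RPKM in CD against 181 RPKM in CS, and 0.516 RPKM in HD against 570 RPKM in HS. The HD value rests on 29 hits. It was at 9.61, 9.05, 2.85 and 4.83 RPKM in CD, CS, HD and HS at 50–100 mg, and at 3421, 4540, 2071 and 2614 RPKM at 400–500 mg. The late libraries of all 4 lines were thus far above the early ones, by 8.76 ± 0.17 on the log2 scale (SE, 4 lines, limma adjusted p = 1.8e-05), whereas the middle library was high only in CS and HS. Glyma05g38110.1, which has no annotation here, rose by as much, 9.21 ± 0.16 (adjusted p = 1.8e-05). Its values at 100–200 mg were 1.93 RPKM in CD against 5.59 RPKM in CS and 0.399 RPKM in HD against 58.9 RPKM in HS, and at 400–500 mg 3352 RPKM in CD against 3157 RPKM in CS and 2052 RPKM in HD against 1625 RPKM in HS. Both of these members thus ended above 1600 RPKM in every line. Of the members with the largest drop in both backgrounds, Glyma18g32760.1 has no annotation here and Glyma13g23980.1 is of unknown function. The first had 0.772 RPKM in CD against 7.46 RPKM in CS and 0.718 RPKM in HD against 19.2 RPKM in HS at 100–200 mg, and rose over development by 6.08 ± 0.30 (limma adjusted p = 0.0001). The second had 0.511 RPKM in CD against 6.13 RPKM in CS and 0.923 RPKM in HD against 7.95 RPKM in HS, and rose by 3.14 ± 0.35 (limma adjusted p = 0.0011).

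Tonoplast aquaporins pass water into the vacuole. The 5 member models (4 loci) of the aquaporin list all rose over development, and the other 9 of its 14 annotated models all fell. Glyma10g31750.1, a TIP-type alpha aquaporin, had 2.002 RPKM in CD against 10.8 RPKM in CS and 2.47 RPKM in HD against 18.2 RPKM in HS at 100–200 mg. Its late values were 97.7 RPKM in CD against 115.6 RPKM in CS and 66.0 RPKM in HD against 43.5 RPKM in HS, and its early values 0.988 to 2.63 RPKM. Over the 4 lines it rose by 4.74 ± 0.28 on the log2 scale (SE, limma adjusted p = 0.00017). Glyma16g33530.1, a beta-tonoplast intrinsic protein, Glyma09g28930.1 and Glyma20g35860.1 followed the same course, with 0.721 to 1.63 RPKM in CD against 6.03 to 10.5 RPKM in CS, and 0.986 to 2.70 RPKM in HD against 9.32 to 16.8 RPKM in HS at 100–200 mg. In all 4 loci the HD value at 400–500 mg was above the HS value, for Glyma09g28930.1 with 131 against 56.4 RPKM.

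The storage protein list held 12 members (9 loci), of which 10 (8 loci) rose over development and none fell, against 16 that rose and 13 that fell among the 35 tested models of the whole list. Glyma02g16440.1, annotated as a beta-conglycinin beta subunit, a storage globulin, had 3.38 RPKM in CD against 18.8 RPKM in CS and 9.37 RPKM in HD against 45.2 RPKM in HS at 100–200 mg. At 400–500 mg it had 126 RPKM in CD against 169 RPKM in CS and 123 RPKM in HD against 58.7 RPKM in HS. Glyma10g39150.1, given both as a lipid binding protein and as a beta-conglycinin alpha chain, was the member with the highest value in HD, with 5.50 RPKM in CD against 34.0 RPKM in CS and 90.4 RPKM in HD against 301 RPKM in HS. It differed in CD at the other stages too, with 11.7 against 29.0 RPKM at 50–100 mg and 124 against 315 RPKM at 400–500 mg. Not every gene of this category is a storage protein by name. Glyma10g39170.1, Glyma05g04630.1 and Glyma17g15060.1 are annotated as lipid transfer proteins, small proteins that carry lipids between membranes, and the harpin-induced protein Glyma13g27820.1 belongs to it too. The members Glyma20g28460 and Glyma20g28640 are annotated as a dermal glycoprotein and a glycogenin-related protein, and Glyma19g34770.1 both as a glucosyltransferase and as glycinin G2. Of the lipid transfer list all 4 members (3 loci) rose, against 5 that rose and 4 that fell of its 11 tested models. Glyma10g39170.1 had 2.32 RPKM in CD against 21.3 RPKM in CS and 2.83 RPKM in HD against 86.6 RPKM in HS at 100–200 mg, and rose over development by 6.59 ± 0.25 (SE, limma adjusted p = 5.5e-05).

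Storage globulins are made mostly in the cotyledons that lie under the dissected seed coat, so cotyledon markers were set beside these values. The summed level of 5 markers at 100–200 mg was 14.5 RPKM in CD against 46.4 RPKM in CS, and 313 RPKM in HD against 132 RPKM in HS, so that it was lower in the defective library in Clark and higher in Harosoy. Glycinin G1 had 1.11 RPKM in CD against 1.78 RPKM in CS, and 61.5 RPKM in HD against 0.756 RPKM in HS. Both beta-conglycinin alpha chain markers were also higher in HD, with 105 and 106 RPKM against 59.8 and 61.3 RPKM, while oleosin 1 had 4.48 RPKM in CD against 15.0 RPKM in CS and 5.64 RPKM in HD against 9.93 RPKM in HS. The rule fixed the direction of the members at this stage, and the whole storage list had a median log2 difference of −0.43 in Clark and 0.78 in Harosoy. None of the 5 markers was at 0 in any library, and their part in the member values was not tested.

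Other late members act in protein breakdown, detoxification, defence and the cell wall. The cysteine protease Glyma10g35100.1, of a family that processes proteins in vacuoles, had 47.7 RPKM in CD against 145 RPKM in CS and 36.8 RPKM in HD against 151 RPKM in HS. Glyma20g32460.1, also a cysteine protease, ran in parallel at 34.0 against 114.4 RPKM and 25.6 against 109 RPKM. Whether reads were counted on both of these models was not tested. Both rose over development, by 3.62 ± 0.34 and 3.59 ± 0.34 on the log2 scale (SE, limma adjusted p = 0.00066 and 0.00067). Glyma05g33200.1, a low-molecular weight cysteine-rich protein of the defensin type, had 54.1 RPKM in CD against 192 RPKM in CS and 25.5 RPKM in HD against 621 RPKM in HS at 100–200 mg, and 806, 1173, 736 and 1030 RPKM in CD, CS, HD and HS at 400–500 mg. The glutathione S-transferase Glyma05g29400.1, an enzyme that couples glutathione to foreign or reactive compounds, had 4.23 RPKM in CD against 9.35 RPKM in CS and 2.49 RPKM in HD against 24.1 RPKM in HS. Of the cell wall list the cellulase Glyma06g47750.1, which splits glucan chains, rose by 5.53 ± 0.14 (limma adjusted p = 2e-05), with 0.689 RPKM in CD against 5.40 RPKM in CS and 0.665 RPKM in HD against 28.3 RPKM in HS at 100–200 mg. The seed maturation protein Glyma20g37670.1 and the universal stress protein Glyma02g26860.1 rose by 4.60 ± 0.16 and 4.11 ± 0.20, with adjusted p = 3.9e-05 and 9.9e-05 in limma. In the defective libraries these late members stood at 0.665 to 54.1 RPKM at 100–200 mg, each at least 2-fold below its standard library, as the rule requires. Of the whole cysteine protease list 3 of 8 models rose and 3 fell, and of the glutathione S-transferase list 3 of 10 rose and 3 fell, while both members of each list rose. The cell wall list held 6 members (5 loci), of which 3 rose and 1 fell, against 57 and 157 of its 279 tested models. Its prolyl oligopeptidase Glyma14g39910.2 had no call and had 7.84 RPKM in CD against 16.1 RPKM in CS and 20.8 RPKM in HD against 44.9 RPKM in HS at 100–200 mg. Cytochrome P450 enzymes oxidise many small molecules. Of the 3 P450 members, Glyma08g10950.1 had 4.83 RPKM in CD against 18.4 RPKM in CS and 3.21 RPKM in HD against 10.9 RPKM in HS, and all 3 rose over development, against 18 that rose and 7 that fell of the 37 tested models of this list. The other P450 members, Glyma09g31810.1 and Glyma09g31820.1, come from loci next to each other.

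Among the chaperones no member rose over development. The heat shock and chaperone list held 10 members (9 loci), of which 2 fell over development, Glyma07g32050.1 and Glyma11g11280.1. Over the 41 models of the whole list 21 fell and 3 rose, and their median log2 difference at 100–200 mg was −0.24 in Clark and −0.12 in Harosoy. The members lie below these medians by choice, since the rule fixed their direction at this stage. Glyma12g01580.2, of the Hsp20 small heat shock family, had 30.3 RPKM in CD against 70.6 RPKM in CS and 17.3 RPKM in HD against 113.8 RPKM in HS at 100–200 mg. At 50–100 mg it had 31.2 RPKM in CD against 84.7 RPKM in CS, but 13.4 RPKM in HD against 15.3 RPKM in HS. At 400–500 mg it had 52.8 RPKM in CD against 53.2 RPKM in CS, and 40.7 RPKM in HD against 18.2 RPKM in HS. The Clark pair thus already differed at the early stage, and the Harosoy pair had turned round at the late one. Both Hsp90 members, Glyma09g24410.1 and Glyma16g29750.1, did likewise, but at 50–100 mg they were also lower in HD than in HS. There the first had 1.24 against 3.29 RPKM and the second 2.07 against 3.50 RPKM. The first had 5.25 RPKM in CD against 16.7 RPKM in CS at 50–100 mg, 5.43 against 23.3 RPKM in Clark and 2.54 RPKM in HD against 36.2 RPKM in HS at 100–200 mg, and 21.5 RPKM in HD against 1.84 RPKM in HS at 400–500 mg. The DnaJ members Glyma11g11280.1 and Glyma08g23540.1, named after their values were seen, differed from these at the early stage. The former had 9.32 RPKM in CD against 3.26 RPKM in CS, and the latter 3.89 RPKM in CD against 1.25 RPKM in CS.

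Gibberellin-regulated genes were among the members with the largest drop. Glyma20g26730.1, of the gibberellin-regulated family of small secreted peptides, had 17.3 RPKM in CD against 135 RPKM in CS and 4.84 RPKM in HD against 79.9 RPKM in HS at 100–200 mg. It had 4.402 against 4.64 RPKM and 1.43 against 3.21 RPKM at 50–100 mg, and 27.3 against 44.0 RPKM and 1.57 against 19.8 RPKM at 400–500 mg, defective before standard in Clark and then Harosoy. In HD it therefore stayed between 1.43 and 4.84 RPKM at all 3 stages, and the standard libraries were at their highest at 100–200 mg. It rose over development in the fit of the 4 lines, by 1.94 ± 0.47 (SE, limma adjusted p = 0.017). This call was lost in several alternatives, among them without CD, without CS, without HS, and in the defective lines alone. The gibberellin list held 5 members (4 loci), of which 4 rose and none fell, against 9 and 16 of its 31 models. Glyma10g40580.1, named as gibberellin pathway related, had 10.9 RPKM in CD against 53.2 RPKM in CS and 4.26 RPKM in HD against 28.4 RPKM in HS, and 0.437 to 8.87 RPKM at the other stages. Glyma17g10050.2 and Glyma15g04160.1, the other named loci of this list, had ratios of 2.30 and 2.08 in Clark and 5.58 and 2.39 in Harosoy.

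Proteins of the dormancy and auxin associated family are small proteins named for their response to these states, and the list also holds ethylene-responsive genes. The family member Glyma03g39450.1 was the most abundant of them, with 91.4 RPKM in CD against 195 RPKM in CS and 65.6 RPKM in HD against 148 RPKM in HS. Its values at 50–100 mg were 88.9 RPKM in CD against 91.0 RPKM in CS and 62.2 RPKM in HD against 70.7 RPKM in HS. Glyma20g38100.2 had 22.8 against 53.4 RPKM in Clark and 15.9 against 42.5 RPKM in Harosoy, and Glyma10g29190.4 had 13.6 against 37.6 RPKM and 10.8 against 29.6 RPKM, defective before standard. The 4 models each of Glyma20g38100 and Glyma10g29190 share reads and followed the same course. At 50–100 mg Glyma10g29190.4 was higher in the defective library of Clark, with 41.6 RPKM in CD against 13.2 RPKM in CS, and not in Harosoy, with 10.8 RPKM in HD against 15.3 RPKM in HS. Of the 11 members of the list (5 loci), 2 rose over development and none fell, against 27 and 11 of its 95 tested models. Those that rose were the thioredoxin peroxidase Glyma05g26400.1 and the ethylene-responsive factor Glyma20g33800.1.

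**Figure D4:**
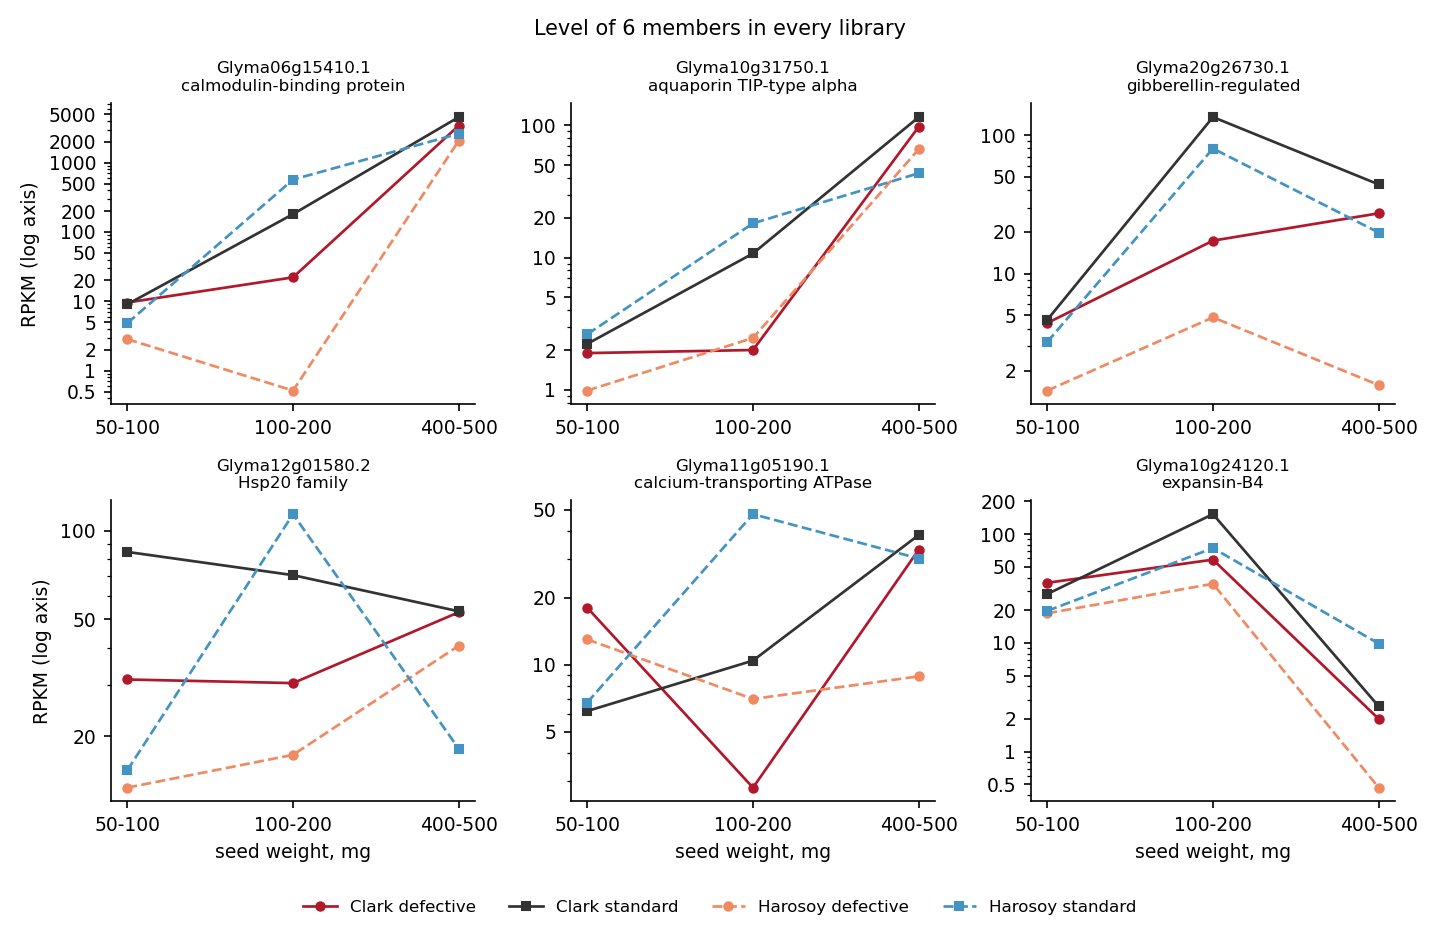
RPKM (log axis) of 6 members in every library against seed weight in mg, with 1 point per library and no error, since each line had 1 library per stage. The first 2 members lie below the standard lines at 100–200 mg and rise by 400–500 mg in all 4 lines, Glyma20g26730.1 stays between 1.43 and 4.84 RPKM in HD, Glyma12g01580.2 is below CS in CD at 50–100 mg, Glyma11g05190.1 is above CS there, and Glyma10g24120.1 is lowest at 400–500 mg.

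The calcium pumps and an NB-ARC gene had the opposite order at 50–100 mg, where the defective library was the higher one in both backgrounds. They were not alone in this. Of all 168 members, 126 were higher in CD than in CS at this stage, and 74 in HD than in HS. Over the 43849 models tested these counts were 24992 and 18276. The calcium-transporting ATPase Glyma11g05190.1, which moves calcium out of the cytosol, had 18.1 RPKM in CD against 6.19 RPKM in CS and 13.01 RPKM in HD against 6.76 RPKM in HS at 50–100 mg. At 100–200 mg it had 2.80 RPKM in CD against 10.4 RPKM in CS and 7.01 RPKM in HD against 47.7 RPKM in HS. At 400–500 mg CD had 33.0 RPKM against 38.4 RPKM in CS, and HD had 8.87 RPKM against 30.1 RPKM in HS. The pair therefore turned round between the first stages in both backgrounds and stayed lower in HD. Glyma01g40130.1, a second calcium transporter, gave 18.3 against 6.37 and 15.5 against 8.87 RPKM at 50–100 mg, CD against CS and then HD against HS. In the same order it gave 2.82 against 9.997 RPKM and 7.93 against 50.2 RPKM at 100–200 mg. Whether reads were counted on both calcium transporters was not tested. Glyma05g17460.1, with an NB-ARC domain and leucine-rich repeats, the structure of many plant resistance proteins, had 15.5 RPKM in CD against 6.34 RPKM in CS and 9.12 RPKM in HD against 6.96 RPKM in HS at 50–100 mg, and 4.29 RPKM in CD against 9.71 RPKM in CS and 7.17 RPKM in HD against 37.8 RPKM in HS at 100–200 mg. Glyma11g35040.1, a nematode resistance HS1pro1 protein, showed the largest Harosoy ratio of these, with 7.20 RPKM in HD against 101 RPKM in HS, and 9.28 RPKM in CD against 22.0 RPKM in CS. Of the calcium list, 5 models (3 loci) were members, of which Glyma06g15410.1 rose and none fell, against 22 and 16 of its 60 models. Of the 12 members of the disease resistance list, 7 rose over development and none fell, against 65 and 38 of the 134 models of the list.

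The transcription factor list held 13 members (11 loci), of which 8 rose over development and none fell, against 50 and 47 of its 172 tested models. Glyma20g33800.1, an ethylene-responsive factor of the ERF type, had 3.12 RPKM in CD against 7.66 RPKM in CS and 1.94 RPKM in HD against 31.7 RPKM in HS at 100–200 mg. Glyma12g06630.1, a Scarecrow-like factor, had 5.09 against 10.4 RPKM in Clark and 5.04 against 26.8 RPKM in Harosoy, and the RING finger protein Glyma13g04100.2 had 7.604 against 16.2 RPKM and 7.15 against 29.9 RPKM, defective before standard. Among these factors the standard Harosoy library was thus the highest of the 4. The RING finger protein Glyma01g36160.1 had about the same ratio in both backgrounds, 2.55 in Clark and 2.46 in Harosoy.

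The 16 members that fell over development (11 loci) had higher early than late levels in all 4 lines by their medians. The median was 7.66 RPKM in CD against 21.4 RPKM in CS and 7.82 RPKM in HD against 31.5 RPKM in HS at 100–200 mg, and 1.81 to 3.10 RPKM in the 4 lines at 400–500 mg. Glyma10g24120.1, an expansin-B, one of the proteins that loosen cell walls, had 58.4 RPKM in CD against 153 RPKM in CS and 35.0 RPKM in HD against 74.6 RPKM in HS at 100–200 mg. It fell by 2.83 ± 0.48 between the outer stages (SE, limma adjusted p = 0.0048), with 0.467 to 9.86 RPKM at 400–500 mg. Others of this group were Glyma15g07720 and Glyma13g31580, both annotated as stem-specific protein TSJT1 and both named after their values were seen. Both have an asparagine synthetase as their other annotation. Glyma15g07720.1 had 21.01 RPKM in CD against 9.28 RPKM in CS at 50–100 mg, and 9.37 RPKM in CD against 21.5 RPKM in CS and 8.79 RPKM in HD against 37.8 RPKM in HS at 100–200 mg.

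The single member with the largest ratio in Clark, Glyma10g35840.1, of unknown function and named after its values were seen, differed in Clark at every stage. It had 93.5 RPKM in CD against 597 RPKM in CS at 50–100 mg, 32.4 against 523 RPKM at 100–200 mg and 120 against 319 RPKM at 400–500 mg. In Harosoy it had 39.1 RPKM in HD against 23.6 RPKM in HS, 11.6 against 45.5 RPKM and 49.9 against 94.9 RPKM at these stages. HD was the higher library at 50–100 mg, and the defective member of the pair was the lower one in the other 5 pairs.

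Outside 100–200 mg no member passed the test for a difference between defective and standard seed coats. In the limma fit of the 4 pairs of the other stages, with a block for each pair, the median difference of the 167 members was −0.04 on the log2 scale, against −0.02 over all models, and 0 members were called. The smallest adjusted p of any member was 1. At an unadjusted p under 0.05 there were 11 members higher and 6 lower in the defective lines, with 0.871% and 1.68% of all models. The test rests on 2 backgrounds and 2 stages, and it called 0 of the 43849 models (0.00% in each direction, with 1119 at an unadjusted p under 0.05). Its error also holds any change of the genotype effect between the 2 stages.

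The stages taken singly gave medians of opposite sign. At 50–100 mg the median of the members was 0.17 on the log2 scale against 0.01 for all models, and 13 members were higher and 2 lower at an unadjusted p under 0.05, against 1.23% and 0.782% of all models. At 400–500 mg the median was −0.22 against −0.04 for all models, and 29 members were lower at an unadjusted p under 0.05, against 2.65% of all models. No member was higher at this p, where 3.65% of all models passed in either direction. The difference between the stages had a median of −0.39 for members and −0.05 for all models, and 29 members were lower and 0 higher at an unadjusted p under 0.05, against 2.25% and 0.593%. In each of these fits 0 members and 0 models passed at an adjusted p under 0.05 in limma, so none was shown to exceed the spread between backgrounds.

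Most of the early 2-fold differences were in Clark. At 50–100 mg 36 members (24 loci) were at least 2-fold higher in CD than in CS and 8 (7 loci) were lower, of 105 members with at least 5 RPKM in either library, against 2.91% higher and 1.02% lower over all models with this level. Those higher included the calcium transporters, the resistance genes and the 4 models of Glyma10g29190 given above, and 20 of the 36 belonged to no list. Those lower included 5 models (4 loci) of the chaperone list and the storage members Glyma10g39150.1 and Glyma19g34770.1, the last of them named after its values were seen. In Harosoy 0 members were higher and 1 was lower in HD than in HS, the defensin-type Glyma05g33200.1, of 80 members at this level, against 0.298% and 0.273% of all models. The median log2 difference was 0.45 in Clark and −0.04 in Harosoy. With 1 library on each side these counts have no test.

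Most of the late 2-fold differences were in Harosoy, in both directions. At 400–500 mg 26 members (18 loci) were at least 2-fold higher in HD than in HS and 37 (30 loci) were lower, of 140 at this level, against 4.98% and 4.66% of all models. The larger of these counts depended on the scaling: with libraries rescaled to a common median, 35 members were higher and 32 lower, and over all models 1380 were higher and 833 lower in place of 1167 and 1093. Those higher included 6 chaperone models and 6 storage models, and those lower included the calcium transporters, Glyma20g26730.1, Glyma03g39450.1 and the 4 models of Glyma20g38100. In Clark 1 member was higher and 8 were lower in CD than in CS, of 143, against 1.27% and 1.96% of all models. Of these 8 models, 4 were of the storage list, Glyma10g39150.1, both models of Glyma13g27820 and Glyma19g34770.1. The median difference was −0.24 in Clark and −0.09 in Harosoy, and the quartiles in Harosoy were −0.91 and 0.70. The members, which were all lower at 100–200 mg by choice, thus lay on both sides at 400–500 mg in Harosoy.

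**Figure D5:**
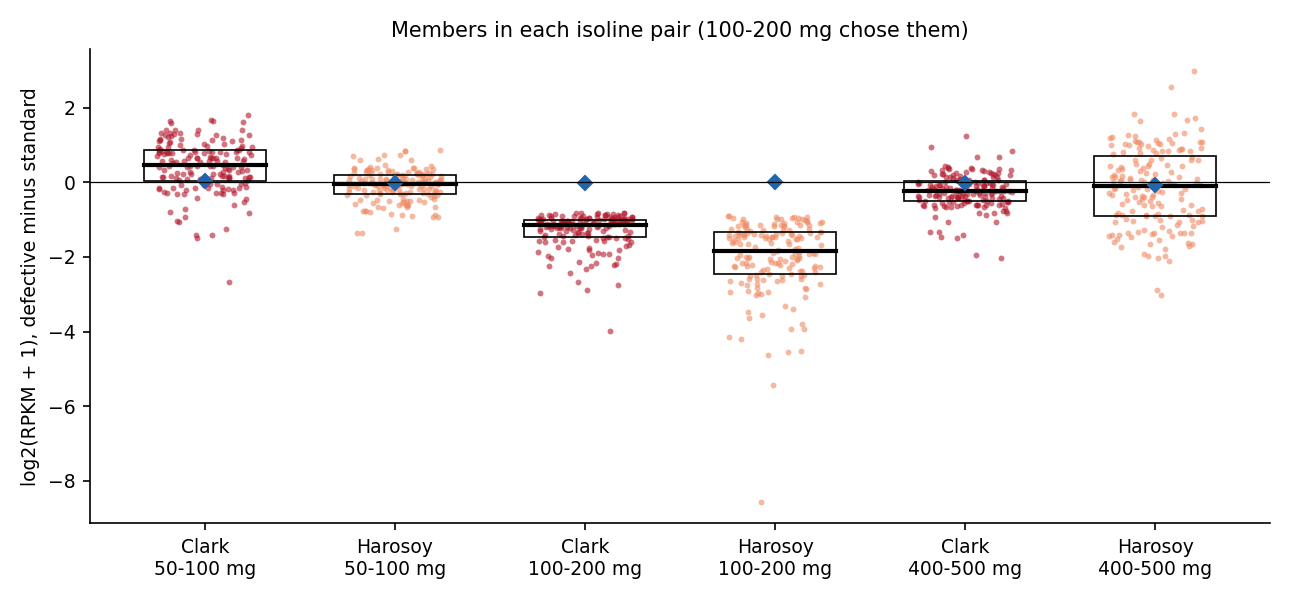
Difference of log2(RPKM + 1), defective minus standard, for each member in each of the 6 isoline pairs (points), with the median and quartiles of the members (bar and box) and the median of all models tested (diamonds). The pairs of 100–200 mg chose the members; elsewhere the medians are 0.45 and −0.04 at 50–100 mg and −0.24 and −0.09 at 400–500 mg, Clark before Harosoy, and the Harosoy points at 400–500 mg lie on both sides of 0.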

How the data were processed

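The authors aligned the reads of each seed coat library with Bowtie to 78773 soybean gene models, allowing 3 mismatches and 25 alignments for a read. They deposited RPKM values in 6 tables, each holding the defective and the standard library of a background and stage. A read counted on several models inflates paralogs and splice models together, and RPKM was scaled within each library only. RNA of the dark Clark seed coats was extracted by a modified method. The hits behind the values were recovered from the steps of the RPKM values for 71434 models (7 more could not be recovered and 7332 were at 0 throughout), whole within 0.03 hits for 99.99% of the expressed models. The totals cover counting error only.

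Members were found by the rule on the deposited RPKM values, and the members and lists were chosen with earlier results of these data known. Log2 values used a pseudocount of 1 RPKM and so understate the change of low genes. limma 3.58.1 with a trend in R 4.3.3 was fitted to the 8 libraries outside 100–200 mg, on models that reached 1 RPKM in 2 or more of them, with Benjamini-Hochberg adjustment over all models and a threshold of 0.05. Genotype effects were blocked on the 4 pairs and development on the line. The deposited values are not counts, and no count test was run. Each group had 1 library. The p-values of the development fit thus measure the spread between lines, and those of the single stages and their difference the spread between backgrounds. In the fit of 1 genotype effect common to both stages, the spread also holds any change of this effect between the stages. The fits were tested on simulated data with large changes and the same noise in every model. Their power in the data used here was not tested. Named were the 10 loci with the largest smaller drop, the 5 loci with the smallest p in each test with calls, up to 4 loci per list with the highest standard RPKM, the models at the limits and those sharing their values. The 13 lists are keywords in the study's annotation tables. They gave medians and counts only, with no set test. The reference annotation held here shares no identifiers with the models, so no sequence or position is given. Python 3.11.15 with numpy 2.4.6, pandas 2.3.3 and matplotlib 3.10.9 was used. Alternatives were other pseudocounts, filters, ratios and scalings, 1 model per locus, fits without blocks, lines or backgrounds, and, chosen after seeing the data, rescaling and 1 model per locus for the fold counts and the place of the middle library.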

Additional observations from a re-analysis of the deposited data

Results flagged for a closer look

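The 63 members with no development call were higher in both defective lines at 50–100 mg and lower in both at 400–500 mg by their medians, which is why they are listed here. The median log2 difference, defective minus standard, was 0.641 in Clark and 0.094 in Harosoy at 50–100 mg, and −0.278 in Clark and −0.906 in Harosoy at 400–500 mg. The difference between the stages was tested for each model in limma, where 0 members passed at an adjusted p under 0.05. For this group as a whole it was not tested.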

How the results depend on the processing

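The number of members followed the limits of the rule, with 413 models at a minimum of 1 RPKM, 91 at a minimum of 10 RPKM and 39 at a 3-fold ratio, against 168. With each library rescaled to a common median there were 145, all of them among the 168, and with 1 model per locus 137. The counts of members that rose or fell over development stayed within 1.5 times of 88 and 16 under all 12 alternatives, with 75 to 99 higher and 12 to 15 lower when 1 line was left out. Over all models the counts of 10330 higher and 12508 lower were 2779 and 5528 in the defective lines alone and 6235 and 9414 without Clark standard, and 6994 were lower with at least 5 RPKM in 2 libraries. When 1 line was left out they ranged from 6235 to 9658 higher and from 9414 to 12047 lower. No member passed for genotype or for the interaction under any alternative that was run, and the median genotype difference was −0.12 without the Clark pairs and 0.08 without the Harosoy pairs. Of 36 named models with a development call, 25 kept it under every alternative, none changed direction, and 30 of 429 single values lost the call, 9 of them for Glyma15g04160.1 and 5 each for Glyma07g32050.1 and Glyma20g26730.1. After rescaling, 4 members lay below both in CS instead of 1, and 0 were 2-fold lower in HD at 50–100 mg instead of 1, while at 400–500 mg 35 members were 2-fold higher and 32 lower in HD, in place of 26 and 37. The cause of these shifts was not tested. No fit with a replicate number as a block was made, since the labels give none and each group has 1 library. The block of the genotype fits is the isoline pair. Only 4 lines or 2 backgrounds repeat a comparison. Members had at least 20 hits in each 100–200 mg library, but some had few at the stages that were tested. In CD at 400–500 mg Glyma07g08820.1 had 1 hit and Glyma03g02180.1 had 2 hits. Both were among the members lower there at an unadjusted p under 0.05 in limma.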
